A study of Drosophila melanogaster with 30 samples.

Results

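Whole adult Canton S females, a wild-type laboratory strain of Drosophila melanogaster, were compared after cooling to 4°C with females kept at 25°C, in RNA-seq libraries made by depletion of ribosomal RNA (rRNA−). The comparison took the 6 rRNA− libraries of these temperatures out of the 30 libraries of the series, 3 against 3, chosen by their labels alone. Each library came from a pool of 6 flies sealed together in a glass tube, and the water bath moved at 0.25°C per min, so that the ramp to 4°C took 84 min. Sample records state that flies left the bath as soon as it reached 4°C, whereas the methods give a hold of 5 min, and the 25°C females were handled in a similar way without the ramp. All flies were reared at 25°C in a 12 h light and 12 h dark cycle. The hour of collection is not given in the sources used here, and time in the tube, temperature and hour of collection cannot be told apart in this comparison. The other rRNA− libraries, at 10°C, 34°C and 37°C, entered the fit for their spread, and polyA-selected (polyA+) libraries with the same temperature and replicate number, taken as the same pools, are given side by side for part of the named genes.

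Drosophila takes the temperature of its surroundings, and cold slows enzymes, stiffens membranes and upsets the balance of ions across muscle and nerve, until flies fall into a reversible chill coma. Known cold-linked genes in this species include Frost (Fst), which is induced by cold and during recovery from it, and the calcium-binding regucalcin and smp-30 genes linked to cold acclimation. The circadian clock also reads temperature. In it, Clk and cyc activate per, tim, vri, Pdp1 and cwo, the vri protein represses Clk, and the Pdp1 protein activates it. A whole-fly library mixes all tissues, and in a female a large part of the RNA comes from the ovary, fat body and muscle.

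The rRNA− libraries held 3633160, 2863701 and 3786589 equalized counts at 4°C, against 4857588, 4897449 and 4033358 at 25°C, with a count in 11283 to 11798 of 17807 genes. Equalized counts are the authors' whole-number gene counts after rRNA reads were taken out, and some other genes, such as histone genes, also hold far fewer counts in them. Full counts keep the rRNA, and nuclear rRNA genes took 52.3%, 54.0% and 8.60% of them at 4°C, against 44.2%, 44.5% and 52.4% at 25°C (exact two-sided permutation test, p = 0.90). Replicate 3 at 4°C thus stood apart from all 14 other rRNA− libraries, which lay between 41.8% and 56.3%. Its rank correlation with replicate 1 at 4°C, Spearman's rho of 0.932 across genes, was the lowest of the 15 pairs among these 6 libraries. Of male markers, 0 of 11 male accessory gland genes reached the level needed for testing (summed CPM of 1.10, 0 and 0.528 at 4°C, against 0.412, 0 and 0.496 at 25°C) and 1 of 12 testis genes did, bol, with 28.1 to 57.9 CPM at 4°C and 40.2 to 54.7 CPM at 25°C. Yp1, the most abundant yolk protein gene, had 11170 to 16770 CPM at 4°C and 11990 to 13200 CPM at 25°C.

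**Figure D1:**
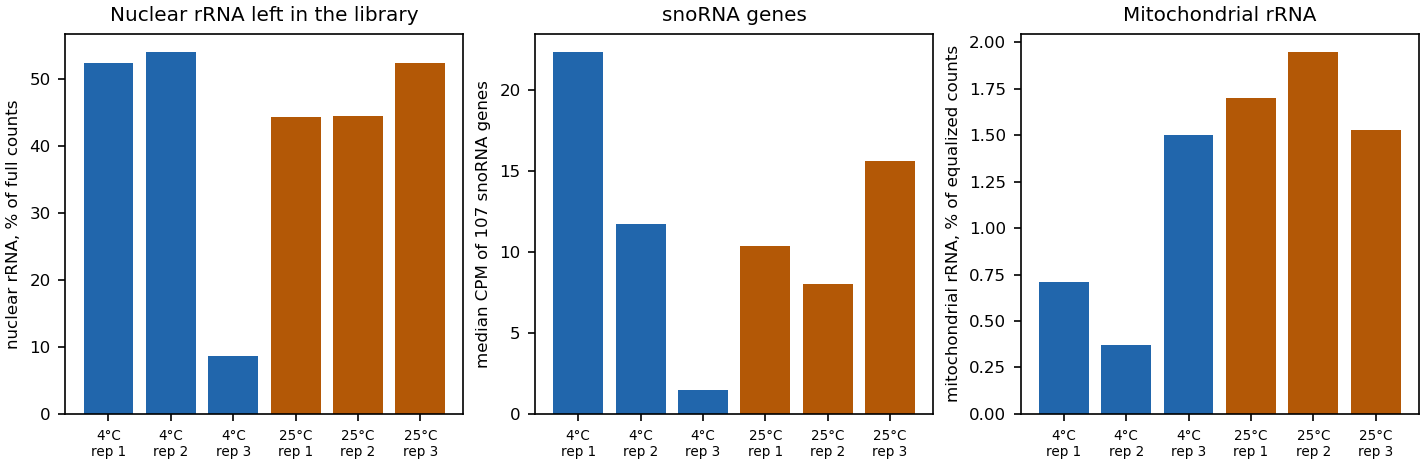
Composition of the 6 rRNA− libraries, 1 bar per library, as nuclear rRNA in percent of full counts (left), the median CPM of 107 snoRNA genes (middle) and mitochondrial rRNA in percent of equalized counts (right). Replicate 3 at 4°C held 8.60% nuclear rRNA and a median snoRNA level of 1.50 CPM, each the lowest of the 6, while its mitochondrial rRNA share of 1.50% was the highest at 4°C.

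A single gene passed the test. With edgeR's quasi-likelihood test, 1 of 9718 genes was called higher at 4°C (0.0103%) and 0 lower, where a call needed a change of at least 1 on the log2 scale and an adjusted p (Benjamini-Hochberg) under 0.05. At an unadjusted p under 0.05, 146 genes were higher (1.50%) and 254 lower (2.61%), together 4.12% of those tested, and 386 (3.97%) and 472 (4.86%) had all 3 libraries at 4°C above or below all 3 at 25°C. DESeq2's Wald test on the same 15 libraries called 8 genes higher and 9 lower. All levels below are CPM (a gene's counts relative to the library total) scaled by the trimmed mean of M values (TMM), a library size correction, and p-values measure the spread between these pools. Changes in the number of cells of a tissue and in RNA per cell cannot be told apart in whole-fly libraries.

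The called gene was vrille (vri, FBgn0016076, 2L:5288944-5311223, plus strand, dm6), which encodes a bZIP repressor of the clock. It had 188, 178 and 178 CPM at 4°C, against 92.9, 79.8 and 94.6 CPM at 25°C. The groups lay far apart, with no library of either near the other. vri rose by a log2 fold change of 1.02 ± 0.14 (SE, n = 3 pools per group), an adjusted p of 0.0153 with edgeR. Its log2 fold change stayed between 0.95 and 1.07 under all alternatives tried, but the call was lost with edgeR when 1 library was left out, at an adjusted p of 0.0896 or 0.0936 without replicate 1 or 2 at 4°C and of 0.0955, 0.201 or 0.0988 without replicate 1, 2 or 3 at 25°C. Without replicate 3 at 4°C the adjusted p was 0.0297, and a fit of the 6 libraries alone gave 0.0502.

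The 10 further genes of smallest p that were higher without overlap between the groups were of several kinds, and 0 of them passed the adjusted threshold in edgeR. DESeq2's Wald test called CG16758, CG6870, Prat2 and Fst among them. A pair of them act on purines. CG16758, which encodes a purine-nucleoside phosphorylase, had 93.1, 105 and 103 CPM at 4°C, against 49.1, 44.5 and 49.6 CPM at 25°C, a log2 difference of 1.07 ± 0.18 (SE) with an adjusted p of 0.0941 in edgeR. Prat2, for the first enzyme of de novo purine synthesis, had 179, 208 and 190 CPM at 4°C, against 116, 60.6 and 103 CPM at 25°C (log2 1.05 ± 0.22). Levels at 4°C were close to each other for both genes, and replicate 2 at 25°C was low for Prat2.

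Fst, the cold- and recovery-induced gene, was a low transcript. Its levels were 7.0, 13.4 and 10.5 CPM at 4°C, against 3.98, 1.18 and 2.68 CPM at 25°C (26, 41 and 42 counts against 20, 6 and 11), a log2 difference of 1.96 ± 0.49 with an unadjusted p of 0.0011. Although 3.90-fold on average, the difference was spread widely in both groups, and the lowest library at 4°C was less than a doubling above the highest at 25°C. phr, a DNA photolyase that repairs ultraviolet damage in light, had 10.5, 20.9 and 26.3 CPM at 4°C, against 6.96, 8.63 and 5.60 CPM at 25°C (log2 1.44 ± 0.37). The phr exons overlap those of Prosalpha1 on the other strand, and whether the counting used strand is not stated.

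CG6870 showed 35.3, 50.2 and 42.6 CPM at 4°C, against 15.1, 13.7 and 13.9 CPM at 25°C (log2 1.58 ± 0.30), and lies antisense to exons of Sytalpha. The other members of this set were CG12116, CG15784, CG9451 and CG15394, at log2 differences of 0.65, 0.65, 1.03 and 1.03, and the antisense RNA gene asRNA:CR31514. That last gene had only 27 counts over the 4°C libraries, against 2 over those at 25°C, a ratio of levels of 17.8 with a 95% counting interval of 4.48 to 155. It overlaps exons of RpS29, a highly expressed ribosomal protein gene, and of CG12947 on the other strand, so its few reads cannot be assigned to a strand with certainty.

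**Figure D2:**
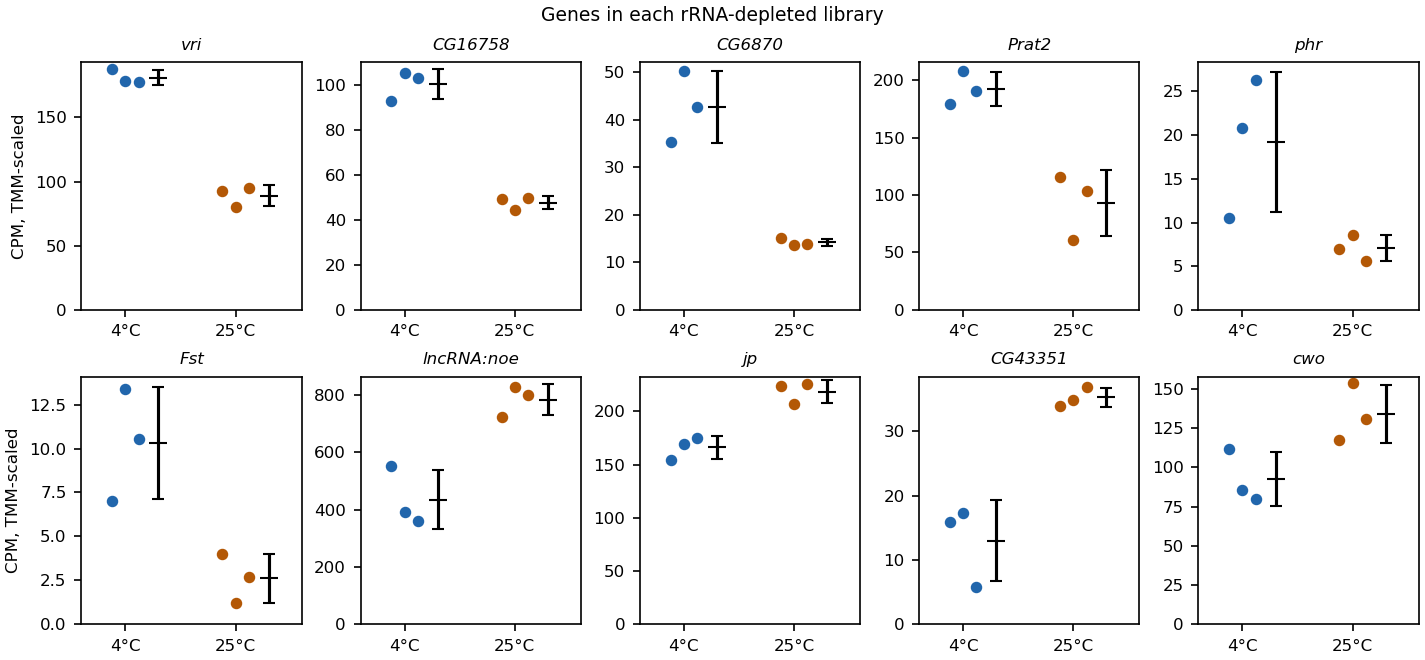
TMM-scaled CPM of 10 genes in each rRNA− library, 4°C left and 25°C right in each panel, each dot 1 pool of 6 flies and the bar beside it the mean with its SD (n = 3). The first 6 genes had all 3 libraries at 4°C above those at 25°C, the last 4 all 3 below, and the vri levels at 4°C lay within 178 to 188 CPM.

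Among the genes lower at 4°C, 0 were called by edgeR, 254 had an unadjusted p under 0.05, and DESeq2 called 9. The smallest p belonged to lncRNA:noe, a long non-coding RNA gene (3L:17400272-17401348, minus strand, dm6), with 552, 393 and 360 CPM at 4°C, against 723, 830 and 801 CPM at 25°C. The log2 difference was -0.85 ± 0.18 (SE), with an unadjusted p of 3.2e-04 and an adjusted p of 0.523 in edgeR. All 4°C libraries were below those at 25°C, replicate 1 being the nearest.

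Another pair of this set had small log2 differences and no overlap. jp encodes junctophilin, which ties the plasma membrane to calcium stores of muscle and neurons, and had 155, 169 and 175 CPM at 4°C, against 224, 207 and 225 CPM at 25°C (log2 -0.40 ± 0.09, adjusted p of 0.577 in edgeR). It shares exons on its strand with CG46468, which was not analysed here. PhKgamma encodes the catalytic subunit of phosphorylase kinase, which turns on glycogen breakdown, and had 165, 136 and 142 CPM at 4°C, against 198, 217 and 207 CPM at 25°C (log2 -0.49 ± 0.13, adjusted p of 0.864 in edgeR). The exons of PhKgamma overlap those of CG2444 on the other strand.

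Of the 10 lower genes, CG4830 and CG43351 had the widest differences among those whose exons overlap no other gene and that exceeded 5 CPM at 25°C. CG4830 had 4.04, 2.94 and 1.25 CPM at 4°C, against 11.3, 5.88 and 13.1 CPM at 25°C (log2 -1.88 ± 0.42). CG43351 had 15.9, 17.3 and 5.76 CPM at 4°C, against 34.0, 34.9 and 37.0 CPM at 25°C (log2 -1.45 ± 0.33). Replicate 3 at 4°C was the lowest library for both. CG14989 (-0.73), CG31221 (-0.88), lncRNA:CR42839 (-2.42), CG10096 (-1.19) and inaF-C (-2.41) made up the rest, given as log2 differences. lncRNA:CR42839 rested on only 6 counts over the 4°C libraries, against 44 over those at 25°C, and inaF-C on 8 against 57. CG10096 and inaF-C share exons with neighbouring genes on their own strand, and lncRNA:CR42839 with an annotated element. CG10096 counted with its partner CG10097 gave 162, 108 and 72.4 CPM at 4°C, against 158, 78.2 and 129 CPM at 25°C, which overlapped, and inaF-C summed with inaF-A, inaF-B and inaF-D overlapped as well.

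**Figure D3:**
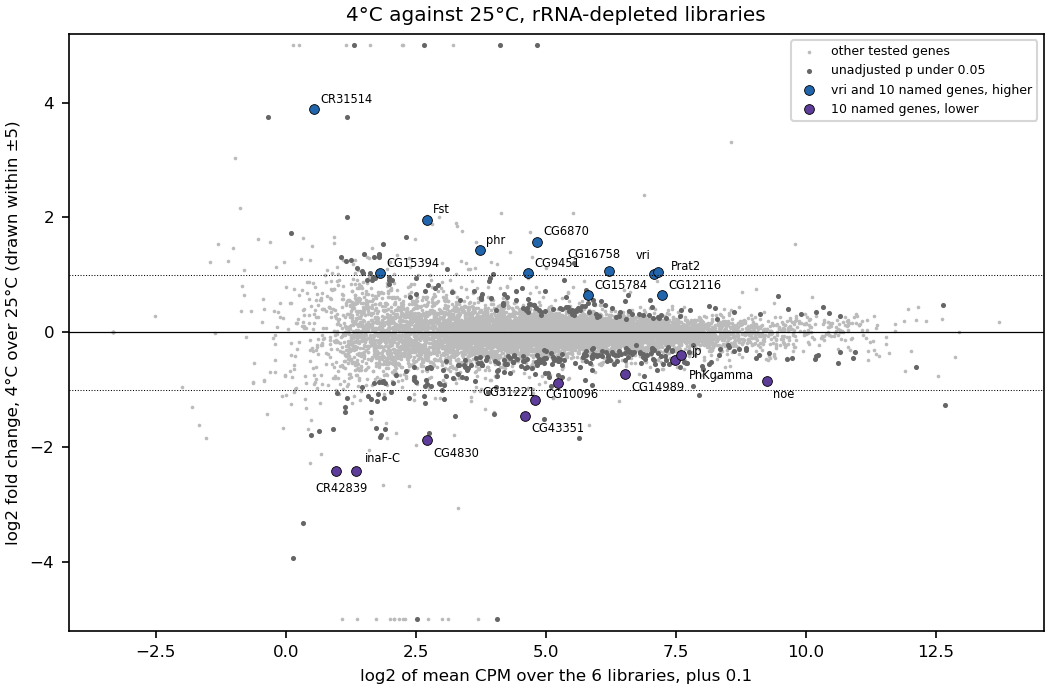
Log2 fold change (4°C over 25°C) against the log2 of the mean CPM plus 0.1 for the 9718 genes tested, with vri, the 10 named higher genes and the 10 named lower genes labelled. Genes past 5 in size are drawn at the edge, dotted lines mark a log2 fold change of 1, and vri, CG16758 and Prat2 lie near that line among well expressed genes.

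The polyA+ libraries, taken as made from the same pools, gave a second reading of these genes. In them edgeR called 0 of 9257 genes, and 58 had an unadjusted p under 0.05 (0.627%). Of these, 37 were higher (0.400%) and 21 lower (0.227%). Of vri and the 10 higher genes, 10 could be tested there. All 10 were above 0 and 8 had all 3 libraries at 4°C above those at 25°C, against 2.01% of all genes tested. These genes were chosen by their difference in rRNA− libraries of pools taken as the same. The share of all genes is therefore no fair measure for them, and the share of all genes above 0 is not given here. vri had 33.7, 38.7 and 67.1 CPM in polyA+ libraries at 4°C, against 27.4, 21.7 and 17.3 CPM at 25°C, a log2 difference of 1.07 with an unadjusted p of 0.066. CG16758, CG6870, Prat2 and CG9451 had the smallest polyA+ p of the set, with log2 differences of 1.46, 1.81, 1.17 and 1.32 and unadjusted p-values of 0.0015, 0.0025, 0.025 and 0.012, none of which passed adjustment. Those without overlap also included CG12116, phr and CG15784, while Fst overlapped, at 0.803, 1.02 and 1.50 CPM at 4°C against 1.27, 0 and 0.729 CPM at 25°C.

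Of the 10 lower genes, 8 could be tested in polyA+ libraries. All 8 were below 0 and 0 had all 3 libraries at 4°C below those at 25°C, where 2.88% of all genes tested did. The lower genes too were chosen by their rRNA− libraries, and the share of all genes below 0 in polyA+ libraries is not given here. lncRNA:noe was hardly captured there, with 9.43, 2.38 and 14.5 CPM at 4°C, against 12.1, 8.83 and 9.97 CPM at 25°C. The same RNA pools are taken to underlie both library types, so the polyA+ values are read as a second library and not further flies. The difference between library types was not tested. Among long non-coding RNA genes that the study names, lncRNA:CR31044 had 14.3, 11.9 and 16.3 CPM in polyA+ libraries at 4°C, against 4.24, 4.75 and 2.43 CPM at 25°C (log2 1.88, unadjusted p of 0.0048). In rRNA− libraries its levels overlapped, with 29.9, 38.8 and 45.8 CPM at 4°C, against 23.7, 35.3 and 25.1 CPM at 25°C.

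Across the 5 temperatures vri followed the order of temperature, with a mean of 181 ± 5.6 CPM at 4°C, of 162 ± 21 CPM at 10°C, of 89.1 ± 8.1 CPM at 25°C, of 76.8 ± 13 CPM at 34°C and of 61.3 ± 4.0 CPM at 37°C (SD, n = 3 pools each). Levels at 4°C and 10°C did not differ beyond their spread (log2 0.16, unadjusted p of 0.26 in edgeR). CG6870 and Prat2 were likewise high at both cold temperatures, at 42.7 ± 7.5 and 38.4 ± 13 CPM for CG6870 and at 193 ± 15 and 168 ± 25 CPM for Prat2 at 4°C and 10°C. CG16758 had its lowest mean at 25°C, 47.8 ± 2.8 CPM, beside 101 ± 6.5 CPM at 4°C, 76.3 ± 16 CPM at 10°C, 78.3 ± 4.9 CPM at 34°C and 84.3 ± 19 CPM at 37°C. Fst was lowest at 25°C as well (2.61 ± 1.4 CPM) and reached 10.3 ± 3.2 CPM at 4°C, 21.3 ± 15 CPM at 10°C, 8.53 ± 1.8 CPM at 34°C and 18 ± 4.3 CPM at 37°C.

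**Figure D4:**
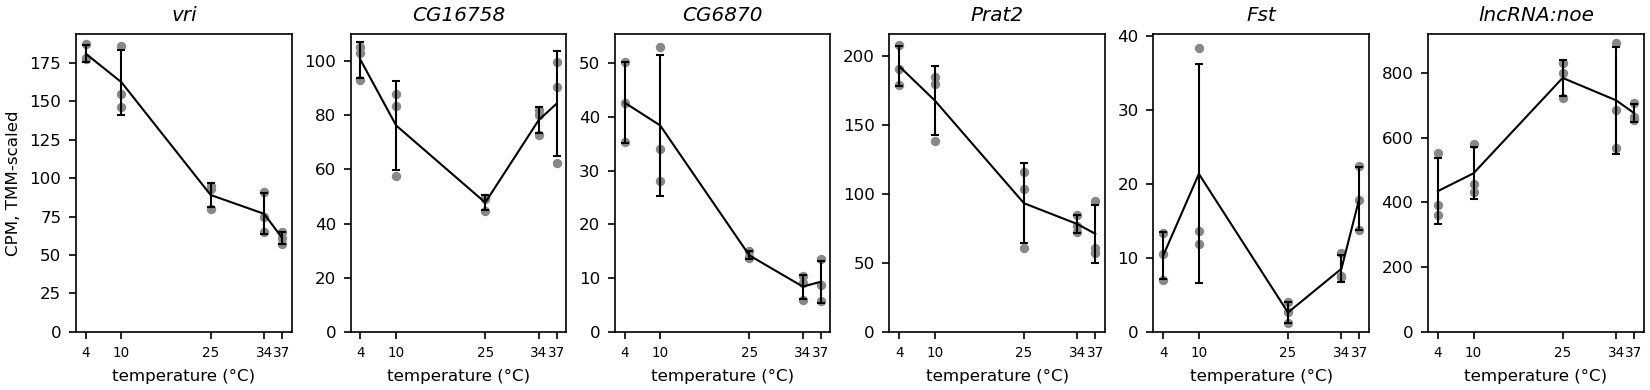
TMM-scaled CPM against temperature in rRNA− libraries, each dot 1 pool and the line the mean with its SD (n = 3 per temperature). vri, CG6870 and Prat2 were high at 4°C and 10°C, CG16758 and Fst were lowest at 25°C, and lncRNA:noe was lower at both cold temperatures, with 435 ± 103 CPM at 4°C and 490 ± 80 at 10°C against 785 ± 55 at 25°C.

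Between 4°C and 10°C edgeR called 0 genes higher and 1 lower, while 934 were higher (9.61%) and 609 lower (6.27%) at an unadjusted p under 0.05. The called gene, CG11891, was noted after its values were seen and had 0 CPM in all libraries at 4°C and at 25°C but 8.76, 22.9 and 23.7 CPM at 10°C. Gene pairs that share a span, described below, gave all-or-none counts of this kind, and whether CG11891 shares exons with another gene is not given here. Both cold comparisons share the 25°C libraries, so their fold changes are only set side by side. The log2 difference from 25°C was 1.96 at 4°C and 3.00 at 10°C for Fst, 0.65 and 1.21 for CG15784, -0.73 and -1.14 for CG14989, and -0.40 and -0.62 for jp, each with an unadjusted p under 0.05 between 4°C and 10°C. CG4830 stood at -1.88 at 4°C and -0.03 at 10°C, lncRNA:CR42839 at -2.42 and -0.34, and CG43351 at -1.45 and -0.50. In the direct test 4°C minus 10°C, CG4830 had the smallest unadjusted p of the 10 lower genes, 6.4e-04, with an adjusted p of 0.0794 in edgeR.

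vri was the only clock gene called. Of 11 clock genes tested, 2 were lower at an unadjusted p under 0.05, against 2.61% of all genes. cwo, a bHLH repressor of the clock, had 112, 85.8 and 79.9 CPM at 4°C, against 118, 154 and 131 CPM at 25°C (log2 -0.54, unadjusted p of 0.0091). Pdp1, which opposes vri at the Clk gene, had 167, 96.5 and 107 CPM at 4°C, against 148, 190 and 210 CPM at 25°C (log2 -0.56, unadjusted p of 0.022), where replicate 1 at 4°C overlapped the 25°C libraries. In polyA+ libraries cwo stood at 0.10 and Pdp1 at 0.60, with overlap for both.

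The log2 difference was 0.21 for per, -0.02 for tim, -0.27 for Clk and 0.00 for cyc, all with groups that overlapped. cry, the light-sensing input of the clock, stood at 0.07, and dco, the kinase that marks the per protein for decay, at -0.37. The output gene to varied widely between pools, with 47.6, 29.4 and 16.3 CPM at 4°C, against 91.1, 17.9 and 54.5 CPM at 25°C. At 10°C cwo was at 67.8 ± 2.5 CPM and Pdp1 at 84.7 ± 5.1, below their means at 4°C of 92.5 ± 17 and 124 ± 38 CPM.

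Heat shock genes, which encode chaperones of damaged proteins, gave no call. Of 15 heat shock genes tested, 0 were higher and 4 lower at an unadjusted p under 0.05 (1.50% and 2.61% of all genes), and the median log2 difference was -0.42, against -0.01 over all genes tested. Hsp68, an inducible Hsp70, had 15.3, 16 and 18.8 CPM at 4°C, against 19.5, 22.4 and 26.5 CPM at 25°C (log2 -0.44). Hsp26, a small heat shock protein gene, had 226, 202 and 256 CPM at 4°C, against 268, 330 and 403 CPM at 25°C (log2 -0.55), and DnaJ-1, an Hsp40 co-chaperone, 130, 120 and 131 CPM at 4°C, against 154, 192 and 160 CPM at 25°C (log2 -0.41). These groups did not overlap, as for 5 of the 15 genes in that direction, against 4.86% of all genes tested. No member passed adjustment. The Hsp68 exons overlap those of CG6000 and lncRNA:CR44097 on the other strand. Hsp22 had 6.73, 3.26 and 5.01 CPM at 4°C, against 6.57, 7.26 and 6.57 CPM at 25°C, and the near-identical Hsp70 copies were at 0 to 7.26 CPM at 4°C and 0 to 4.62 CPM at 25°C, too few to compare. Hsp22 shares exons on its strand with CG4456. Summed over the pair the levels were 6.73, 4.57 and 5.01 CPM at 4°C, against 8.75, 7.26 and 8.27 CPM at 25°C, without overlap, and the sum was not tested. Hsp83, the Hsp90 gene and the most abundant of the list, stood at 0.12.

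Of the 4 cold acclimation genes, 1, Fst, had an unadjusted p under 0.05, while regucalcin (log2 0.23), smp-30 (0.12) and the co-chaperone stv (-0.17) did not. Over all genes tested, 1.50% were higher and 2.61% lower at that limit. Of 10 immediate early and JNK genes 1 was higher, Ets21C, an ETS factor of stress and JNK signalling, with 3.77, 12.1 and 6.51 CPM at 4°C, against 1.59, 3.33 and 1.95 CPM at 25°C (log2 1.67, unadjusted p of 0.0047). The Ets21C exons overlap those of nAChRbeta3 on the other strand. Of the same list, kay, Jra and puc stood at -0.19, -0.09 and -0.01. Of 8 antimicrobial peptide genes tested 1 was lower, the cecropin gene CecA1, on 2 counts over the 4°C libraries against 30 over those at 25°C, a ratio of 25°C over 4°C of 11.4 with a 95% counting interval of 2.88 to 98.0. Of 3 Turandot stress genes tested 0 had a p under the limit in either direction, and TotA lay at 1.31 to 2.76 CPM at 4°C, against 2.55 to 5.35 CPM at 25°C.

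No gene of the neuronal and sarcomere lists was called. Of 10 neuronal genes, 10 had a negative log2 difference (median -0.45, range -0.59 to -0.38), 6 an unadjusted p under 0.05 and 6 no overlap, against 2.61% and 4.86% of all genes in that direction. brp, the active zone scaffold of synapses, had 82.9, 96.2 and 84.9 CPM at 4°C, against 117, 104 and 122 CPM at 25°C, VGlut, the glutamate transporter of synaptic vesicles, 49.0, 49.6 and 42.3 CPM at 4°C, against 56.1, 59.0 and 69.1 CPM at 25°C, and nSyb, a vesicle fusion protein, 65.7, 61.0 and 46.6 CPM at 4°C, against 71.0, 81.8 and 77.4 CPM at 25°C. Their adjusted p was 1.00 in edgeR. In polyA+ libraries the log2 difference was -0.40 for brp, -0.48 for VGlut and 0.85 for nSyb, all with groups that overlapped. The VGlut exons overlap those of CG18641 on the other strand.

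Without replicate 3 at 4°C all 10 neuronal genes remained below 0, at a median of -0.37, but 1 in place of 6 had an unadjusted p under 0.05. The neuronal genes are long, with a median span of 27248 bases. Over all genes tested, the fifth with the longest spans (median 19931 bases) had a median log2 difference of -0.10, against -0.01, 0.03, 0.03 and 0.00 in the other groups of equal size, from the shortest spans up, and whether gene length bears on the neuronal values was not tested. Of 10 photoreceptor genes 0 had an unadjusted p under 0.05 in either direction, at a median of -0.03, and without replicate 3 at 4°C 1 was lower. The difference between this list and the neuronal list was not tested. ninaE, the main rhodopsin, had 914, 758 and 964 CPM at 4°C, against 1123, 1019 and 1162 CPM at 25°C (log2 -0.33, unadjusted p of 0.066).

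Of 21 sarcomere genes 21 were below 0, with a median of -0.25, beside 5038 of all 9718 genes, and 5 had an unadjusted p under 0.05 (2.61% of all genes in that direction). up, the troponin T gene, had 811, 728 and 477 CPM at 4°C, against 1036, 874 and 871 CPM at 25°C (log2 -0.46), Tm2, a tropomyosin, 557, 482 and 383 CPM at 4°C, against 675, 592 and 607 CPM at 25°C (log2 -0.40), and Mlc2, the regulatory light chain of myosin, 1862, 1369 and 1601 CPM at 4°C, against 2767, 1878 and 1973 CPM at 25°C (log2 -0.45). Each of these was without overlap, as were 5 of the 21 genes in that direction, against 4.86% of all genes tested. Mhc, the heavy chain, overlapped, with 3692, 3455 and 3853 CPM at 4°C, against 5908, 3426 and 4405 CPM at 25°C. Sarcomere genes took 1.97%, 1.78% and 1.72% of counts at 4°C, against 2.51%, 1.90% and 2.00% at 25°C (exact permutation test, p = 0.20). Without replicate 3 at 4°C, 17 of 21 were below 0 and 4 had an unadjusted p under 0.05.

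Of 87 cytosolic ribosomal protein genes tested, 0 were called. The median log2 difference was 0.17 with 79 above and 8 below 0, 9 were higher and 0 lower at an unadjusted p under 0.05 (1.50% and 2.61% of all genes), and 26 were higher without overlap, against 3.97% of all genes. RpS4 had 1507, 1564 and 1358 CPM at 4°C, against 1081, 1067 and 1125 CPM at 25°C, and RpS16 had 819, 905 and 1026 CPM at 4°C, against 703, 647 and 716 CPM at 25°C, log2 differences of 0.44 and 0.41. The class took 10.7%, 11.8% and 12.6% of counts at 4°C, against 10.2%, 10.6% and 10.2% at 25°C, with no overlap and p = 0.10 in the exact permutation test, the smallest p that 3 against 3 allows and 0.30 after adjustment over the 9 classes compared. Replicate 3 at 4°C was the highest, and without it 71 of 87 were above 0, with 4 at an unadjusted p under 0.05. The 71 mitochondrial ribosomal protein genes (median 0.07) and 31 proteasome genes (median 0.04) had 0 members past the limit in either direction.

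Mitochondrial rRNA took 0.708%, 0.372% and 1.50% of equalized counts at 4°C, against 1.70%, 1.95% and 1.53% at 25°C (exact permutation test, p = 0.10, the smallest possible, and 0.30 after adjustment over the 9 classes). All 3 libraries at 4°C lay below those at 25°C, replicate 3 only just, and over the 14 rRNA− libraries other than that replicate the share ran from 0.167% to 1.96%. mt:lrRNA, the large subunit rRNA, had 4803, 2011 and 4583 CPM at 4°C, against 7429, 10700 and 9430 CPM at 25°C (log2 -1.27, unadjusted p of 0.0031, adjusted p of 1.00 in edgeR), and DESeq2 called it. mt:srRNA, the small subunit rRNA, had 2114 and 1459 CPM in replicates 1 and 2 at 4°C but 9664 CPM in replicate 3, against 9000, 8011 and 5554 CPM at 25°C.

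Of 15 genes of the mitochondrial genome tested, both rRNAs included, 11 were below 0 (median -0.31), and mt:lrRNA and mt:CoII were lower at an unadjusted p under 0.05. Without replicate 3 at 4°C, 13 of 15 were below 0 at a median of -0.65 and 8 were lower at that limit, where 3.88% of all genes were. mt:CoII, a subunit of cytochrome oxidase, had 964, 746 and 1193 CPM at 4°C, against 1581, 1224 and 1224 CPM at 25°C (log2 -0.47). mt:ND5 had 154 and 191 CPM in replicates 1 and 2 and 1276 CPM in replicate 3 at 4°C, against 512, 643 and 227 CPM at 25°C. Nuclear genes of oxidative phosphorylation had a median of -0.03 over 67 tested, with 0 higher and 3 lower at an unadjusted p under 0.05 (1.50% and 2.61% of all genes). These were Cyt-c1 and UQCR-11 of complex III at -0.30 and -0.65, and ND-MNLL, which shares its span with another gene and turned to 0.52 by full counts.

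Small nuclear and nucleolar RNAs separated replicate 3 at 4°C from the other 5 libraries compared. The median snoRNA level was 22.3, 11.7 and 1.50 CPM at 4°C, against 10.3, 8.04 and 15.6 CPM at 25°C, over 107 genes of these guides of rRNA modification. snRNA and scaRNA genes, the RNAs of the spliceosome and the guides that modify them, had medians of 23.1, 17.6 and 2.00 CPM at 4°C, against 11.5, 9.02 and 17.5 CPM at 25°C. With all libraries the snoRNA median log2 difference was 0.05, with 61 above and 46 below 0, and the snRNA and scaRNA median was -0.02. Without replicate 3, 103 of 107 snoRNA genes were above 0 at a median of 0.57, beside 4899 of 9925 genes tested. Of the 107, 5 were higher at an unadjusted p under 0.05 (2.28% of all genes). All 23 of 23 snRNA and scaRNA genes were above 0, at a median of 0.47. In replicates 1 and 2 at 4°C the snoRNA list median deviated from the 25°C mean by 0.85 and 0.24. The 25°C libraries deviated by 0.01, -0.43 and 0.41. snRNA:7SKa, which holds back the elongation factor P-TEFb, was also lowest in replicate 3 at 4°C, with 2563, 2071 and 1153 CPM at 4°C, against 1946, 1214 and 1849 CPM at 25°C. The low nuclear rRNA share of that library moves with these values, and its part in them was not tested.

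Of the genes of egg production 0 were called. Yolk protein genes took 3.09%, 3.19% and 2.68% of counts at 4°C, against 2.26%, 2.65% and 2.43% at 25°C, without overlap (exact permutation test, p = 0.10, the smallest possible, and 0.30 after adjustment over the 9 classes), and Yp2 had 7069, 8106 and 6928 CPM at 4°C, against 4484, 6126 and 5206 CPM at 25°C (log2 0.48, unadjusted p of 0.0092). Yp1 stood at 0.18 and Yp3 at 0.24. Mean Yp2 was lowest at 25°C, with 5272 CPM, against 9850 CPM at 10°C, 9159 CPM at 34°C and 10400 CPM at 37°C. The 5 vitelline membrane genes, which cover the egg at mid-oogenesis, had positive differences (0.41 to 1.23), with Vm32E at 77.2, 58.1 and 58.6 CPM at 4°C, against 31.0, 36.9 and 16.1 CPM at 25°C (log2 1.20, unadjusted p of 0.0082). Vm26Ab overlapped, with 458, 418 and 303 CPM at 4°C, against 144, 502 and 244 CPM at 25°C.

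Chorion genes, used after the vitelline membrane, were mixed, with 5 of 9 above 0, 0 higher and 1 lower at an unadjusted p under 0.05 (1.50% and 2.61% of all genes). Cp15 had 3400, 4671 and 2534 CPM at 4°C, against 4882, 5947 and 5256 CPM at 25°C (log2 -0.60), while Cp38 stood at 0.45 with overlap. Of 12 maternal germline genes 1 was lower, grk, the ligand that sets the axes of the egg, with 13.5, 10.4 and 14.0 CPM at 4°C, against 20.1, 18.6 and 22.1 CPM at 25°C (log2 -0.68, unadjusted p of 0.0041). The grk exons overlap those of Akap200 on the other strand. The median over the 12 was 0.00. A pool of 6 females can hold eggs of different stages, and the stage of the ovaries was not recorded in the sources used here.

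Genes of ions and membranes, on which chill tolerance is known to depend, gave few members past the limit. Of 28 ion transport genes 0 were higher and 2 lower at an unadjusted p under 0.05 (1.50% and 2.61% of all genes), with a median of 0.00. nrv3, a beta subunit of the sodium pump of the nervous system, had 104, 78.6 and 81.4 CPM at 4°C, against 118, 156 and 174 CPM at 25°C (log2 -0.76), and Vha16-1, a proton pump subunit, 1544, 1225 and 1473 CPM at 4°C, against 1723, 1725 and 1928 CPM at 25°C (log2 -0.34). Of 13 genes of membrane and fatty acid lipids 0 passed the limit in either direction, and of 15 genes of sugar and proline metabolism 1 was higher, fbp, an enzyme of gluconeogenesis, with 93.4, 100.1 and 93.7 CPM at 4°C, against 92.5, 72.8 and 59.9 CPM at 25°C.

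Hormone genes gave no call. Of 6 juvenile hormone genes 2 were lower at an unadjusted p under 0.05 (2.61% of all genes), the response gene Kr-h1 at log2 -0.55 and the receptor gene gce at -0.29. Kr-h1 shares exons with CG45075, stood at -0.37 by full counts, and overlapped when the pair was summed, at 85.3, 58.7 and 67.1 CPM at 4°C, against 80.8, 118 and 91.2 CPM at 25°C. The gce exons overlap those of asRNA:CR44429 and asRNA:CR44961 on the other strand. Of 11 ecdysone response genes 10 were below 0 (median -0.21), beside 5038 of all 9718 genes. They are long genes, with a median span of 50703 bases, and the fifth of all genes with the longest spans had a median of -0.10. Whether gene length bears on the ecdysone values was not tested. The nuclear receptor gene Eip78C alone had an unadjusted p under 0.05 (log2 -0.67).

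**Figure D5:**
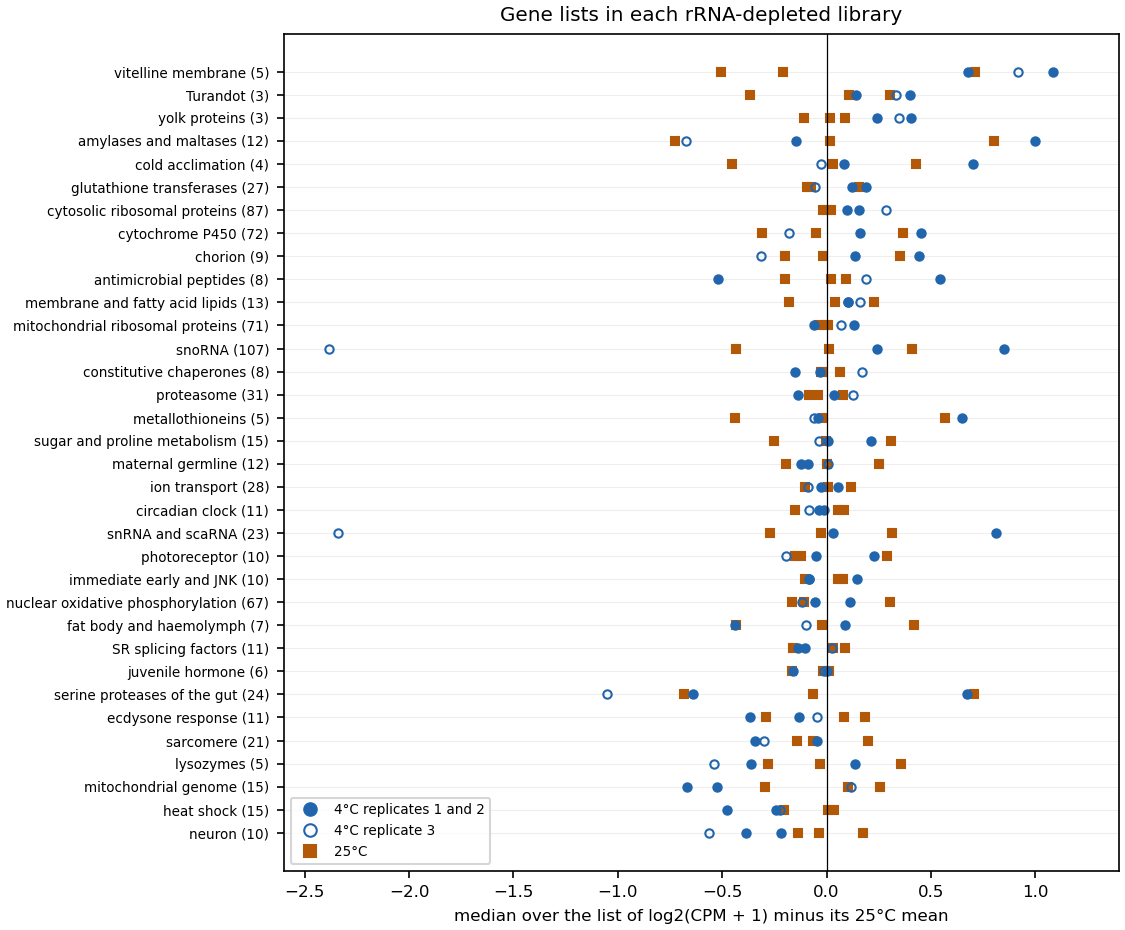
Median over each gene list of log2(CPM + 1) minus the 25°C mean of the same gene, by library, with the number of genes tested in parentheses. Replicate 3 at 4°C (open circles) lay at -2.38 for snoRNA and -2.34 for snRNA and scaRNA genes, the cytosolic ribosomal protein genes of all 4°C libraries lay to the right of those at 25°C, and the neuronal genes to the left.

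Gut and detoxification genes varied between pools at both temperatures. The list median of 24 gut serine proteases deviated from the 25°C mean by 0.67, -0.64 and -1.05 at 4°C, against 0.71, -0.68 and -0.06 at 25°C, and Jon65Aiv had 969, 666 and 310 CPM at 4°C, against 829, 434 and 698 CPM at 25°C. Of 72 cytochrome P450 genes 54 were above 0 (median 0.17) and 2 were higher at an unadjusted p under 0.05 (1.50% of all genes), or 5 without replicate 3 at 4°C (2.28% of all genes). Cyp18a1, which breaks down ecdysteroids, had 64.9, 61.0 and 86.9 CPM at 4°C, against 57.7, 34.5 and 52.1 CPM at 25°C (log2 0.56). Of 27 glutathione transferase genes 2 were higher, GstE8 and GstE3, and of 5 metallothionein genes 1, MtnE, which binds copper and zinc, with 5.38, 3.59 and 1.50 CPM at 4°C, against 1.59, 0.196 and 0.730 CPM at 25°C (log2 2.00), groups that overlapped.

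Some of the widest differences came from gene pairs that share a span, for which the counts fell wholly or largely on 1 gene in some libraries and on its partner in others. SuUR and CG45101, which both cover 3L:11064991-11069025 on the plus strand (dm6), had 0, 0 and 0 counts for SuUR at 4°C, against 143, 202 and 127 at 25°C, and 165, 99 and 106 counts for CG45101 at 4°C, against 0, 0 and 0 at 25°C. In the full counts the split fell elsewhere, with SuUR at 165, 99 and 106 at 4°C, against 144, 0 and 0 at 25°C. Summed over the pair the levels were 44.4, 32.3 and 26.6 CPM at 4°C, against 28.5, 39.6 and 30.9 CPM at 25°C, which overlapped. A fit of the 6 libraries alone called these 2 genes in opposite directions, and 7 of the 17 DESeq2 calls were members of pairs split in this way (CG45101, fab1, CG17325, Tcs1, wrm1, CG44001 and CG45099). CG10096, described above, was a further DESeq2 call that shares its span with another gene, and the call 28SrRNA-Psi:CR45860, a pseudogene of rRNA, rested on 80 counts in replicate 3 at 25°C and 0 in the other 5 libraries. The remaining DESeq2 calls were vri, CG16758 (adjusted p of 2.8e-05, Wald test), CG6870 (1.5e-04), Prat2 (0.0057) and Fst (0.027), all higher at 4°C. Those lower were CG43351 (0.0087), CG4830 (0.026) and mt:lrRNA (0.0497). CG12116, jp and lncRNA:noe also passed its adjusted p, with changes under the fold limit. The sums over the split pairs overlapped between the groups except for CG17325 with CG42305, at 99.6, 73.7 and 74.6 CPM at 4°C, against 64.3, 52.8 and 73.2 CPM at 25°C. The complex I gene ND-MNLL, at log2 -1.85 by equalized counts, shares its span with CG45089, and their sums overlapped too.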

How the data were processed

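The authors made the libraries with a stranded rRNA-depletion or polyA kit. The submitters' processing notes name STAR 2.7.7a, Salmon 1.4.0 and the dm6 assembly, and which tool gave the counts is not stated. The deposited values are whole-number read counts per gene, not normalized. For equalized counts the authors removed rRNA reads and sampled polyA+ reads to match the depth of each rRNA− partner. The full counts keep rRNA.

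Counts of the 15 rRNA− libraries at 5 temperatures were fitted by temperature with edgeR 4.0.16 in R 4.3.3 (TMM, filterByExpr, robust quasi-likelihood, 10 residual degrees of freedom), and 4°C was contrasted with 25°C. The polyA+ libraries were fitted apart. SE values are the log2 fold change over the root of F. p-values were adjusted by Benjamini-Hochberg over all genes tested. The procedure was tested on simulated data. Shares were compared by exact two-sided permutation tests, and counting intervals at 95% cover counting error only. Symbols were matched for 17710 of 17807 genes, and positions are from Ensembl release 115. Plots used matplotlib 3.10.9.

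Genes named were each called gene; the 10 higher and 10 lower of smallest p without overlap between the groups; the lncRNA or antisense gene of smallest p each way; genes the study names; and of 37 gene lists up to 3 members of smallest unadjusted p under 0.05, or else the most abundant. Other list members and exon-sharing partners were added after their values were seen. The members and lists were chosen with earlier results of these data known. Alternatives were DESeq2 1.42.0, its size factors, the 6 libraries alone, no filter on low counts, full counts, a replicate block and each library left out. List symbols without a match (Hsp67Bb, Hsc70Cb, Hop, Vha44, FASN3, CdsA, GlyP, GlyS, nos and Unc-89) and promoter sequences were not analysed here. A result of 1 gene list is not reported here.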

Additional observations from a re-analysis of the deposited data

How the results depend on the processing

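The count of called genes, 1 higher and 0 lower with edgeR on all 15 rRNA− libraries, was 8 higher and 9 lower with DESeq2's Wald test (771 genes without an adjusted p), 2 higher without the filter on low counts (vri and CG16758), and 1 higher and 1 lower with the 6 libraries alone. Leaving out 1 library gave 0 to 1 higher and 0 to 1 lower, the lower call being mt:srRNA without replicate 3 at 4°C. At an unadjusted p under 0.05 there were 400 genes, and 243 to 790 when 1 library was left out (790 without replicate 1 at 4°C, 243 without replicate 3 at 25°C). DESeq2 size factors and full counts gave 1 higher and 0 lower. A replicate block gave 0 higher and 0 lower, with an adjusted p of 0.0533 for vri. The replicate numbers did not pair the pools, since deviations of same-numbered libraries correlated at 0.187, -0.056 and -0.061. Of the named genes, ND-MNLL turned to 0.52 by full counts, and Jon65Aiv to 0.0058 with DESeq2 and to 0.0057 with its size factors. Over all alternatives, log2 differences that changed sign when 1 library was left out ran from -0.53 to 0.0754 for lncRNA:CR32368, -0.12 to 0.29 for FASN1, -0.0693 to 0.0881 for mRpS30, -0.0505 to 0.47 for snRNA:7SKa, -0.42 to 0.32 for Jon65Aiv and -0.53 to 0.007 for bol. None of these had an unadjusted p under 0.05 except ND-MNLL. The cause was not tested. No library held over 4897449 equalized counts at these temperatures, and the common biological coefficient of variation was 0.240.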

Other observations

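Values not described above concern lists that gave few or no members past the limit. Of 8 constitutive chaperone genes tested 1 was lower at an unadjusted p under 0.05 (2.61% of all genes), Hsc70-2, with 0, 0.978 and 0.751 CPM at 4°C, against 1.99, 2.35 and 1.70 CPM at 25°C, while the list median was 0.04. Of 12 amylase and maltase genes 1 was lower, Mal-B1, a maltase gene, with 29.6, 14.7 and 4.26 CPM at 4°C, a range that overlapped that at 25°C (unadjusted p of 0.031). The 5 lysozyme genes (median -0.27) and the 7 genes of fat body and haemolymph (median -0.08) had 0 members past the limit in either direction. The lipoprotein gene apolpp, the most abundant of the fat body list, had 3660, 2521 and 1961 CPM at 4°C, against 3871, 3126 and 3399 CPM at 25°C. Of 111 histone genes 0 reached the level needed for testing in equalized counts, where their summed CPM was 2.11 to 3.88. In full counts, whose totals include rRNA, their summed CPM was 1016, 1108 and 2193 at 4°C, against 1075, 987 and 986 at 25°C. Histone genes thus lost most of their counts in the equalized counts, and their levels were not compared.

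Long non-coding and antisense RNA genes took 1.03%, 0.911% and 0.631% of equalized counts at 4°C, against 1.04%, 1.11% and 0.996% at 25°C (exact permutation test, p = 0.20). The lowest share was again that of replicate 3 at 4°C. lncRNA:CR32368 had 27.2, 14.7 and 13.0 CPM at 4°C, against 24.9, 16.3 and 18.7 CPM at 25°C, and asRNA:CR44035 had 5.11, 6.52 and 5.51 CPM at 4°C, against 5.57, 6.67 and 9.49 CPM at 25°C, both with overlap. The αγ-element lncRNA at the Hsp70 locus was at 0.652 CPM or less in all 6 libraries.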
